A study of Mus musculus with 6 samples.

Results

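Hepatocytes of embryonic day 18 (E18) livers were compared with hepatocytes of adult mice on normal feed, over all genes of the deposited expression table. The members were taken from the sample labels, 4 of the 6 samples of the series, with 2 samples in each group. All mice were of the FVB strain, and the labels name no transgene or deletion. Each E18 sample was prepared from a pool of about 8 livers, whereas the labels do not say whether the 2 normal fed samples came from separate animals, so p-values measure only the spread between these samples. The labels give no sex for any group and no age for the adults. The remaining 2 samples, adults fed DDC (a compound that injures the liver) for 4 weeks, entered the estimate of each gene's variance and the choice of the genes tested, since the filter on low values, the rule on genes listed at 0 and the hepatocyte total described below use all 6 samples. Samples are called 0 and 1, as the columns of the table number them.

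The late fetal liver is the main site of blood formation, so hepatocytes grow among red cell, neutrophil and megakaryocyte precursors. Around birth and weaning, hepatocytes leave the cell cycle, stop making fetal proteins and take up the adult tasks of detoxification, bile acid synthesis, urea production and glucose output. Insulin-like growth factor 2 is the main circulating growth factor before birth, and growth hormone driven insulin-like growth factor 1 replaces it afterwards.

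RNA was measured by sequencing of polyadenylated transcripts, and the table gives transcript abundance as TPM, a share scaled per length that sums to the same total in each sample. Without counts the depth of the samples is unknown. At least 1 TPM was reached by 10792 and 10401 genes in the normal fed samples and by 13983 and 13748 at E18. The normal fed samples differed more from each other than the E18 samples did, with a median absolute log2 difference of 0.374 against 0.167. Among genes whose exons sum to the longest 20%, normal fed sample 1 differed from sample 0 by a median log2 value of -0.52, against 0 among the shortest 20%. The difference E18 minus normal fed also went with length, with a median of 1.38 among the longest and 0.58 among the shortest.

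Of the 48432 genes listed, 14235 were tested. In 80 genes both samples of a group stood at 0 although another group reached 100 TPM or more, and these were left out as failed estimates. Of them, 55 were at 0 in the normal fed samples and not at E18, 10 at E18 and not in the normal fed samples, 2 in both of these groups and 13 in the DDC fed samples alone. The fibrinogen chain Fga was such a gene, at 5483 and 2365 TPM in normal fed adults and listed at 0 in both E18 samples, and so was the chain Fgb, at 2528 and 1323 TPM. The third chain of the same protein, Fgg, was at 7621 and 4729 TPM at E18. Alpha-fetoprotein (Afp), the classical plasma protein of fetal liver, and the imprinted RNA H19 were also listed at 0 in both E18 samples. Since Afp was at 0.158 and 0.174 TPM and H19 at 0.114 and 0.0446 TPM in normal fed adults, both passed the rule, but no direction is read from either.

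In what follows, a pair of values before "to" or "against" gives TPM in normal fed samples 0 and 1, and the pair after it TPM in E18 samples 0 and 1. Differences are of log2(TPM + 1), E18 minus normal fed, ± the standard error of a limma fit, a scale that understates the change of genes near 0. Genes with a Benjamini-Hochberg adjusted p under 0.05 over all genes tested are called higher or lower. By this rule 8969 genes were higher at E18, 63.0% of those tested, and 1795 were lower, 12.6%. The median difference of all genes tested was 1.06. With median-ratio scaling, which centres the genes of the samples on each other, the median was 0.09, and 38.0% were higher and 31.6% lower. When the summed TPM of 459 hepatocyte list genes was set equal in all samples, called the hepatocyte total below, the median was 2.83, and 90.8% were higher and 3.36% lower. That total held 34.8% and 34.4% of all TPM in the normal fed samples and 9.97% and 6.72% at E18, a log2 difference of -2.08, and it includes many genes that fell. Lists are read against these percentages.

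Markers of hepatocytes were present in both groups. Ttr, which carries thyroid hormone and retinol, stood at 9535 and 9640.2 TPM in normal fed adults and 3941 and 2487 TPM at E18. The epithelial keratin Krt18 was at 164 and 155 against 262 and 135 TPM, and its groups overlapped. Of 22 hepatocyte markers 16 were tested, 11 were lower at E18 and none was higher, while 4 were left out as listed at 0 in a group and Alb and Trf are listed at 0 in all compared samples. Without E18 sample 1, 7 of the 16 were lower, and without normal fed sample 0, 1 was higher. With the hepatocyte total set equal, 2 were lower and 6 higher.

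Blood cell RNA took a larger share of both E18 samples than of both normal fed samples. The 13 neutrophil genes tested took 0.0029% and 0.0032% of TPM in the normal fed samples and 2.27% and 2.79% at E18. The erythroid genes tested took 0.135% and 0.113% against 1.70% and 2.90%, and the platelet genes 0.0050% and 0.0069% against 0.368% and 0.399%. The tested genes of all hepatocyte lists together took 34.9% and 34.4% in the normal fed samples and 10.1% and 6.81% at E18. These shares leave out the genes listed at 0 in a group. With those genes counted, 12 on the neutrophil list and 20 on the hepatocyte lists, the E18 shares were 6.45% and 7.71% for neutrophils and 12.9% and 8.68% for hepatocytes, and the normal fed hepatocyte shares 39.2% and 37.5%. The E18 samples also differed from each other: sample 1 had more of the erythroid list (median log2 difference between the samples 0.55, with 36 of 37 genes higher) and less of the hepatocyte lists (-0.50, with 43 of 479 higher). This difference between the 2 pools is given below as a second description of each group of genes, since it used no adult sample. Over all 14235 genes tested 7308 were higher in sample 1, with a median of 0.009, and lists are read against these values. The description sets 1 pool against 1, and the pools also differed in Xist and in pancreas genes, given below. In such bulk samples fewer cells of a type and less RNA per cell cannot be told apart.

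**Figure D1:**
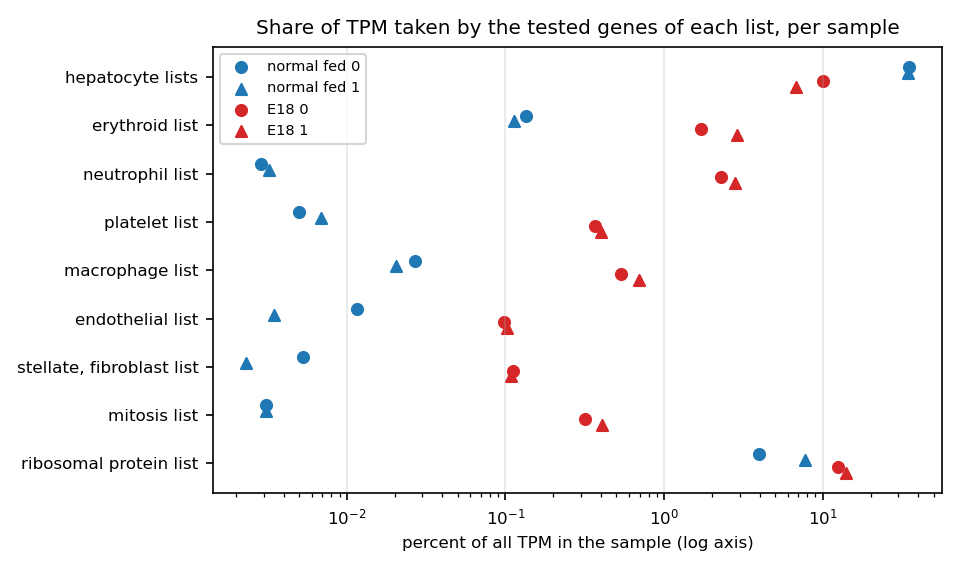
Percent of all TPM taken by the tested genes of each list (log axis), without genes listed at 0 in a group, in the 2 normal fed samples (blue) and the 2 E18 samples (red). The hepatocyte lists lie at 34.9% and 34.4% in the normal fed samples and at 10.1% and 6.81% at E18, and the neutrophil list lies at 2.27% and 2.79% at E18.

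The largest rise among blood list genes was in a neutrophil gene. S100a8, a subunit of the calcium-binding protein calprotectin, was at 0.140 and 0.108 TPM in normal fed adults and 16404 and 19942 TPM at E18 (13.97 ± 0.22). Its partner S100a9 was at 29057 and 33644 TPM at E18 and listed at 0 in both normal fed samples, so no fold is given. The same held for the granule proteins Mpo, Ngp and Camp. The neutrophil protease Elane went from 0.0482 and 0 to 876 and 1152 TPM (9.94 ± 0.22). Prtn3, a protease of the same granules, went from 0.182 and 0.195 to 837 and 1053 TPM (9.63 ± 0.23). In S100a8, Elane and Prtn3 both E18 samples stood far above both normal fed samples, and sample 1 was the higher of the E18 pair. These genes passed the low-value filter only through E18 and so had to be higher.

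Red cell and platelet genes followed. The beta globin Hbb-bs went from 0.173 and 0.755 to 6849 and 12465 TPM (12.65 ± 0.33). The alpha globin Hba-a1 went from 0 and 0.737 to 3879 and 7982 TPM (12.04 ± 0.40). Klf1, the transcription factor that switches on the globin programme, went from 3.67 and 1.50 to 106 and 162 TPM (5.27 ± 0.35). The erythropoietin receptor Epor went from 0.364 and 0.200 to 35.8 and 59.5 TPM (5.21 ± 0.26). All of these red cell genes were higher in E18 sample 1 than in sample 0. The platelet chemokine Pf4 went from 0.584 and 0.509 to 943 and 1132 TPM (9.39 ± 0.20). Ppbp, another chemokine of platelet granules, went from 0.0386 and 0.0943 to 744 and 774 TPM (9.48 ± 0.19). Among 115 blood list genes tested 112 were higher and none lower, against 63.0% and 12.6% of all genes. With median-ratio scaling 103 were higher and 2 lower, the haem synthesis enzyme Alad and the transcription factor Hlf, which hepatocytes also express. The other 5 of the 12 largest rises on these lists were the platelet matrix protein Thbs1, the neutrophil siderophore binder Lcn2, the red cell carbonic anhydrase Car2, the platelet protein Plek and the phagocyte lysozyme Lyz2, with differences from 6.98 for Lyz2 to 8.87 for Thbs1. When normal fed sample 1 was left out 2 were lower. Of the 115, 70 passed the low-value filter only through E18 and so had to be higher, which makes this count a description. Of the other 36 listed blood genes in the table, 23 were left out as listed at 0 in a group and 13 were too low. Lcn2 was also at 4173 and 3342 TPM in the DDC fed samples, where S100a8 was at 0.554 and 1.02 TPM.

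Genes of other liver cells took smaller shares at E18 than the tested neutrophil and erythroid genes, but macrophage genes took more than platelet genes. Lyz2, at 2674 and 3352 TPM at E18, is on both the neutrophil and the macrophage list and is counted in both. Macrophage genes took 0.0269% and 0.0204% of TPM in the normal fed samples and 0.536% and 0.695% at E18, endothelial genes 0.0115% and 0.0035% against 0.0977% and 0.102%, and stellate cell and fibroblast genes 0.0053% and 0.0023% against 0.112% and 0.109%. The scavenger receptor Marco of macrophages went from 2.82 and 1.60 to 119.8 and 149 TPM (5.42 ± 0.27). The sinusoidal endothelial receptor Stab2 went from 4.29 and 0.866 to 76.4 and 67.2 TPM (4.53 ± 0.45). The collagen chain Col1a1 went from 0.0726 and 0.00928 to 29.3 and 29.6 TPM (4.87 ± 0.19). Of 102 genes on the lists of other liver cells 97 were higher and none lower, or 91 and 3 with median-ratio scaling. These are 95.1% higher against 63.0% of all genes, and 89.2% against 38.0% with median-ratio scaling. Of the 102, 11 passed the low-value filter only through E18 and so had to be higher.

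Igf2, Gpc3 and Dlk1 of the fetal programme were among the 12 largest rises on no blood or other-cell list. Igf2 was at 0.00918 and 0.0369 TPM in normal fed adults and 2290.3 and 1501 TPM at E18 (10.82 ± 0.25). Dlk1, a membrane protein of hepatoblasts, was at 0.00867 and 0 against 459 and 310.5 TPM (8.56 ± 0.24). Igf2 and Dlk1 passed the low-value filter only through E18 and so had to be higher. Gpc3, a heparan sulfate proteoglycan of fetal liver and liver tumours, was at 0.0196 and 0 against 568 and 366 TPM (8.82 ± 0.25). Spink1, a secreted trypsin inhibitor, went from 0.189 and 0.286 to 266 and 161 TPM (7.39 ± 0.26). Each of these was below 1 TPM in both adult samples and lower in E18 sample 1 than in sample 0. Of 10 fetal secreted and surface proteins 9 were higher in TPM, with median-ratio scaling and with the hepatocyte total set equal, and Afp, listed at 0, was the remaining one. All 10 were under 1 TPM in both normal fed samples and 4 passed the low-value filter only through E18, so this count is no support for a direction. Afp was called lower with median-ratio scaling and without either E18 sample, from which nothing is read. In 9 of the 10 the level fell from E18 sample 0 to sample 1 or stood at 0, with Cd24a, which blood cells also express, as the exception at 754 and 1139 TPM. The list's median difference between the pools was -0.59, near that of the hepatocyte lists.

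A2m and Hsd3b1 stood near the top of the same ranking and behaved alike between the pools. A2m, a protease inhibitor of plasma, went from 0.0437 and 0.00605 to 924 and 587 TPM (9.49 ± 0.26). The steroid dehydrogenase Hsd3b1 went from 0.0226 and 0.0372 to 379 and 217 TPM (8.13 ± 0.28). Both passed the low-value filter only through E18 and so had to be higher. In contrast, Anxa1, Ifitm6, Arhgdib and Coro1a, which white blood cells express, ranked among the 12 largest rises without being on a blood list. Anxa1, a regulator of inflammation, went from 1.03 and 0.461 to 1004 and 1086 TPM (9.24 ± 0.23). Coro1a, an actin-binding protein of white cells, went from 0.567 and 0.391 to 309 and 374 TPM (7.85 ± 0.22). All 4 of these were higher in E18 sample 1, unlike A2m and Hsd3b1. Scd2 and Top2a, described below, and Tmsb10, an actin-binding peptide at 1019 and 946 TPM (8.23 ± 0.20), completed the 12 together with Igf2, Gpc3 and Dlk1.

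RNA-binding and chromatin proteins of fetal cells also rose. Igf2bp3, which binds and stabilizes fetal transcripts, was at 0.00812 and 0 TPM in normal fed adults and 43.4 and 40.1 TPM at E18 (5.41 ± 0.16). The chromatin protein Hmga1 went from 8.48 and 4.50 to 137 and 159.9 TPM (4.37 ± 0.28). Arid3a went from 0.310 and 0.284 to 44.7 and 48.2 TPM (5.19 ± 0.17). Lin28b, which blocks maturation of let-7 microRNAs, was listed at 0 in the normal fed samples and stood at 4.998 and 5.80 TPM at E18. All 9 tested members were higher, also with median-ratio scaling, but 7 of them, Igf2bp3 and Lin28b included, passed the low-value filter only through E18 and so had to be higher. Unlike the secreted proteins, they showed little difference between the pools (median -0.11, 4 of 9 higher in sample 1), and fetal blood cells express several of them.

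Imprinted genes, expressed from 1 parental allele and many of them regulators of fetal growth, were higher as a group. Of 21 tested 18 were higher and 1 lower, with a median of 3.68, where 8 passed the low-value filter only through E18, and all 21 were lower or at 0 in E18 sample 1 compared with sample 0. The cell cycle inhibitor Cdkn1c went from 1.24 and 0.779 to 529.7 and 342 TPM (7.74 ± 0.27). The noncoding RNA Meg3 went from 1.73 and 3.22 to 549 and 319 TPM (6.95 ± 0.38). The growth factor receptor adaptor Grb10 went from 3.65 and 1.02 to 632 and 423 TPM (7.40 ± 0.41). The hydrolase-like gene Mest was at 0.523 and 0.153 against 227 and 223 TPM (7.42 ± 0.22). The amino acid carrier Slc38a4 was the member that was lower, at 645 and 243 against 169 and 104 TPM (-1.57 ± 0.48, and 0.50 with the hepatocyte total set equal), a call that was lost without either E18 sample. Snrpn (from 5.65 and 3.80 to 3.54 and 2.91 TPM) did not pass, except as lower without normal fed sample 1, and H19 is the listed zero named above. With median-ratio scaling 17 were higher and 2 lower, and without normal fed sample 1, 2 were lower.

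The growth factor axis changed at the ligand, its carrier and its hormone receptor. Igf1 was at 1232 and 1046 TPM in normal fed adults and 16.9 and 17.4 TPM at E18 (-5.97 ± 0.21, adjusted p = 1.8e-06). It was -3.94 and still called lower with the hepatocyte total set equal. Igfals, which keeps IGFs in circulation, went from 182 and 86.9 to 8.62 and 6.04 TPM (-3.95 ± 0.37). The growth hormone receptor Ghr went from 722 and 641 to 78.7 and 44.7 TPM (-3.50 ± 0.29). Igfbp1, a binding protein induced by fasting, moved the other way, from 29.97 and 74.4 to 1690.3 and 1381 TPM (4.98 ± 0.41). The receptor Igf1r, nearly absent from adult hepatocytes, was at 0.0766 and 0.00945 against 12.7 and 15.4 TPM (3.85 ± 0.15). Like Igf2, it passed the low-value filter only through E18 and so had to be higher. Of 17 genes of the axis 8 were higher and 5 lower, Igf1, Igfals, Ghr, Igfbp4 and the prolactin receptor Prlr, and 3 were lower without E18 sample 1. Igfbp4 (-1.56 ± 0.36 in TPM, not called without E18 sample 1) turned to 0.51 and Prlr (-1.34 ± 0.37 in TPM) to 0.71 with the hepatocyte total set equal. With median-ratio scaling 6 were higher and 8 lower, and with the hepatocyte total set equal 12 and 3. On GRCm38 Igf2 (ENSMUSG00000048583.16) lies on chromosome 7 from 142650766 to 142666816 and Igf1 (ENSMUSG00000020053.18) on chromosome 10 from 87858265 to 87937042.

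**Figure D2:**
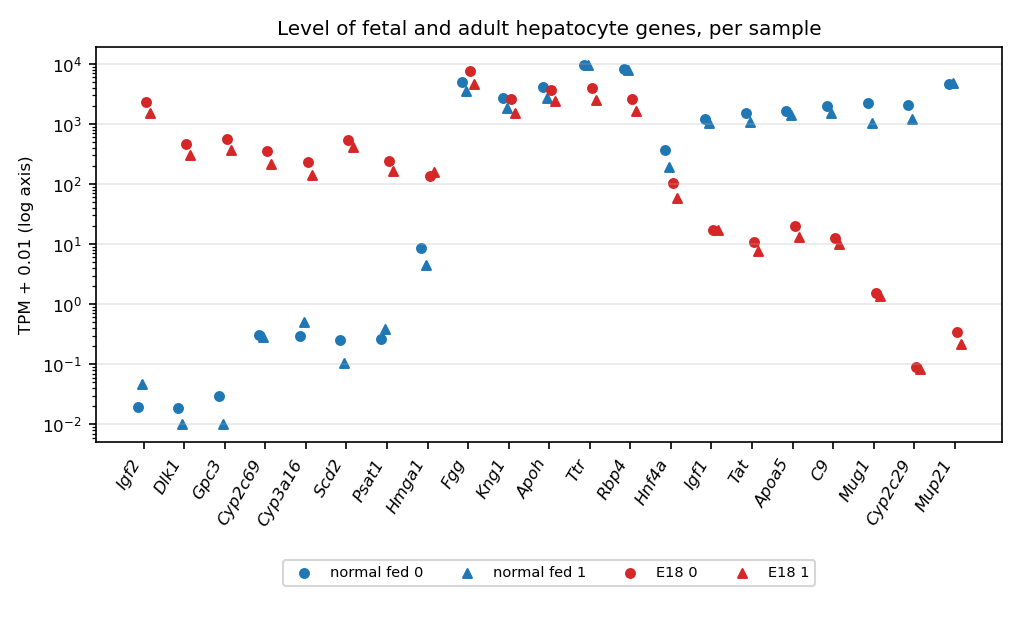
TPM of 21 genes of fetal and adult liver in each normal fed (blue) and E18 (red) sample on a log axis, with a small constant added so that zeros can be drawn. Fetal genes such as Igf2 stand on the left, plasma proteins whose groups overlap, such as Fgg, in the middle and adult genes such as Mup21 on the right.

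Genes of adult liver function held the largest falls. Mup21, a major urinary protein that male mice excrete as a scent carrier, was at 4661 and 4786 TPM in normal fed adults and 0.335 and 0.205 TPM at E18 (-11.86 ± 0.18, adjusted p = 8.9e-07). The cytochrome P450 Cyp2c29 went from 2114 and 1232 to 0.0792 and 0.0747 TPM (-10.55 ± 0.29). The methyltransferase Inmt went from 1022 and 1308 to 0.642 and 0.604 TPM (-9.48 ± 0.21). The 12 largest falls further held the carboxylesterase Ces3b, the protease inhibitor Mug1, the P450 Cyp1a2, the tryptophan dioxygenase Tdo2, the acetyltransferase Nat8f2, the immunoglobulin carrier Pigr, Mettl7b, the carbonic anhydrase Car3 and the sulfotransferase Sult2a8. Their differences ran from -8.56 for Sult2a8 to -9.34 for Ces3b, and from -6.67 for Car3 to -8.67 for Ces3b with the hepatocyte total set equal. In each of the 12 both E18 samples stood far below both normal fed samples. Reads of near-identical genes in the Mup, Cyp2, Cyp3a, Ugt, Ces1 and Mug clusters may have been divided between members, so single members are uncertain.

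Cytochrome P450s, the haem enzymes that oxidize drugs, steroids and fatty acids, split into many that were lower and a few that were higher. Of 45 tested 31 were lower and 10 higher, with a median of -2.55. Of the 31, 22 were also lower with the hepatocyte total set equal, as were 475 of all 1795 genes lower in TPM. Cyp2e1, the ethanol-oxidizing enzyme of pericentral hepatocytes, went from 8193 and 4389 to 478 and 280.2 TPM (-4.03 ± 0.42, and -1.95 with the hepatocyte total set equal). The nicotine- and coumarin-oxidizing Cyp2a5 fell from 711 and 603 to 4.30 and 2.29 TPM (-7.30 ± 0.32). The oxysterol hydroxylase Cyp7b1 went from 787 and 412 to 0.888 and 0.566 TPM (-8.37 ± 0.32). In the opposite direction, Cyp2c69 was at 0.294 and 0.277 against 349.7 and 216 TPM (7.75 ± 0.26). Cyp3a16 was at 0.280 and 0.497 against 237 and 144 TPM (7.07 ± 0.28). Cyp2c40 was at 1.21 and 0.964 against 223 and 117 TPM (6.29 ± 0.32). The fatty acid hydroxylase Cyp4a14 was at 0.156 and 0.855 against 27.6 and 24.2 TPM (4.20 ± 0.26). Of the 45 tested, 6 passed the low-value filter only through E18 and so had to be higher, among them Cyp2c69, Cyp2c40 and Cyp4a14. With median-ratio scaling 7 of the 10 remained higher. Both the rising and the falling P450s were lower in E18 sample 1 than in sample 0, 44 of 45 in all.

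Promoter letters of the P450 genes are shown beside these values. CAAAGT is the core of sites bound by the hepatocyte factor HNF4A and related receptors. In the 250 bases before the transcription start, on either strand, it occurred in 24 of 46 windows of P450 genes (52.2%), 10 of 32 windows of plasma transport proteins (31.3%), 6 of 32 windows of amino acid catabolism genes (18.8%) and 12.6% of all 32851 RefSeq windows. The share was 9.52% for erythroid, 7.35% for ribosomal protein and 7.14% for mitosis genes. A match is a description of the letters and not of binding. The genes shown were taken in order of the size of the fall, without repeating a subfamily. Only called P450 genes with a single RefSeq window and the motif in the 150 bases shown were eligible, so both hold the motif by choice. The stretches shown are RefSeq sequence of GRCm38.p6, 5′ to 3′ on the gene's strand, with the motif or its reverse complement in capitals.
Cyp2c29, chr19:39286935-39287084, plus strand: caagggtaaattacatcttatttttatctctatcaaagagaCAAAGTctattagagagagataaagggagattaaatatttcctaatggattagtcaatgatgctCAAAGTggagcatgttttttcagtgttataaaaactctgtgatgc
Cyp2a5, chr7:26835189-26835338, plus strand: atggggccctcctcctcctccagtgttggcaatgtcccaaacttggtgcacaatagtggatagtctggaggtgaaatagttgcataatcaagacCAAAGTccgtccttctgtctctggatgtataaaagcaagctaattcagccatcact

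Conjugating and hydrolysing enzymes were lower nearly throughout. Of 23 glucuronosyltransferases and sulfotransferases, which make compounds soluble for excretion, 18 were lower and 1 higher (median -3.02), and 14 were lower with the hepatocyte total set equal. Ugt2b1 went from 1163 and 624 to 5.95 and 2.87 TPM (-7.36 ± 0.38). Ugt2a3 went from 355 and 245 to 2.24 and 1.17 TPM (-6.80 ± 0.28). Ugt1a1, the enzyme that conjugates bilirubin, stood apart at 249 and 119 against 175 and 123 TPM, and the groups overlapped (-0.23 ± 0.37, adjusted p = 0.58), although it passed as lower without normal fed sample 1. Sult3a1 was the member that was higher, from 0 and 0.0657 to 79.3 and 37.3 TPM (5.75 ± 0.33). Of 36 oxidoreductases and carboxylesterases 28 were lower and 2 higher, with a median of -2.91. The carboxylesterase Ces1f went from 627 and 361 to 0.739 and 0.503 TPM (-8.20 ± 0.30). The retinaldehyde dehydrogenase Aldh1a1 went from 1295 and 1118 to 10.2 and 14.1 TPM (-6.53 ± 0.24). The 2 higher were Fmo4 (1.24 ± 0.29) and Adh7 (0.73 ± 0.16), neither of which passed with median-ratio scaling (0.24 and -0.17), and Fmo4 did not pass without E18 sample 0. Without E18 sample 0, 1 of the list was higher. Of 21 glutathione transferases, which join glutathione to reactive compounds, 16 were lower and 3 higher (median -1.89), and with the hepatocyte total set equal 9 and 7. Gstp1 went from 2821 and 2258 to 201 and 164 TPM (-3.79 ± 0.27). The higher ones were Gstm5 (2.98 ± 0.20), Mgst2 (6.49 ± 0.19) and Mgst3 (2.58 ± 0.32), which were also higher with median-ratio scaling.

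Of 14 genes of bile acid synthesis 10 were lower and 1 was higher in TPM, and with the hepatocyte total set equal 5 were lower and 5 higher. Cyp7a1, the rate-limiting enzyme, was at 134 and 50.6 TPM in normal fed adults and 60.5 and 24.4 TPM at E18, and the groups overlapped (-1.08 ± 0.54, adjusted p = 0.11); it passed as lower without normal fed sample 1. Baat, which joins bile acids to taurine, went from 302 and 409 to 8.86 and 5.72 TPM (-5.44 ± 0.27). The activating ligase Slc27a5 went from 736 and 423 to 51.6 and 35.03 TPM (-3.68 ± 0.33). The higher one was the oxysterol hydroxylase Cyp39a1, from 9.65 and 5.84 to 40.99 and 22.9 TPM (1.89 ± 0.33).

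Of the bile and drug transporters, 2 carriers of the blood-facing membrane fell and 2 canalicular exporters did not pass. The organic anion carrier Slco1a1 went from 684 and 615 to 4.47 and 2.69 TPM (-7.17 ± 0.31). Slco1b2, which takes up bilirubin and drugs, went from 1011 and 847 to 58.6 and 44.6 TPM (-4.15 ± 0.24). The bile salt pump Abcb11 of the canalicular membrane was at 99.1 and 58.4 against 70.7 and 41.1 TPM with overlapping groups (-0.49 ± 0.36, adjusted p = 0.26). The phospholipid exporter Abcb4 was at 81.9 and 48.04 against 62.7 and 62.8 TPM, and its groups overlapped too. The canalicular sterol exporter Abcg5 did fall, from 63.6 and 37.4 to 1.59 and 0.870 TPM (-4.50 ± 0.31). Over 17 transporters 11 were lower and 1 higher, and with the hepatocyte total set equal 7 were lower and 8 higher. Abcc4, an efflux pump that blood cells also carry, was the higher one, from 0.169 and 0.0914 to 7.39 and 8.29 TPM (2.97 ± 0.23).

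Genes known as higher in adult male liver were lower at E18. Of 19 such genes 15 were lower and none higher, 78.9% against 12.6% of all genes lower, with a median of -4.40, and 11 were lower with the hepatocyte total set equal. Hsd3b5, a steroid reductase, went from 227 and 208 to 0.971 and 0.381 TPM (-7.05 ± 0.23). The elongase Elovl3 went from 92.9 and 138 to 0.429 and 0.597 TPM (-6.24 ± 0.24). Cyp2d9 went from 1678 and 901 to 10.1 and 6.74 TPM (-7.05 ± 0.35). The other 4 were Mup genes listed at 0 in all compared samples. Genes known as higher in adult females stood near the whole table. Of 19 tested 12 were higher and 2 lower, where 63.2% higher compares with 63.0% of all genes and the median of 0.96 with 1.06, and 7 of them passed the low-value filter only through E18. Cyp2c69, Cyp3a16 and Sult3a1 above are among them. The peroxisomal oxidase Hao2 went from 0.0354 and 0.0731 to 79.3 and 47.4 TPM (5.89 ± 0.26). The transcription factor Cux2 went from 0.237 and 0.155 to 14.9 and 9.33 TPM (3.42 ± 0.23). The 2 lower ones were Fmo2 (-0.79 ± 0.25) and the prolactin receptor Prlr, which stood at 0.74 and 0.71 with the hepatocyte total set equal. With median-ratio scaling 9 were higher and 3 lower, and without normal fed sample 0 or without E18 sample 1 none was lower. All 19 were lower in E18 sample 1 than in sample 0. Xist, the RNA of the inactive X chromosome of females, went from 0.00723 and 0.00301 to 60.7 and 173 TPM, and the Y-linked gene Ddx3y was at 32.9 and 19.3 against 43.9 and 16.7 TPM. Both were chosen after their values were seen, and the part of sex in these calls was not tested.

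Enzymes that break down amino acids were lower in 36 of 38 cases and higher in none, with a median of -2.32. All 38 were lower with median-ratio scaling, and 11 were lower and 8 higher with the hepatocyte total set equal; without normal fed sample 0, 1 was higher. Tdo2, which opens the tryptophan ring, was at 1495 and 1171 TPM in normal fed adults and 1.52 and 1.44 TPM at E18 (-9.06 ± 0.21, adjusted p = 1.7e-06). The first enzyme of tyrosine breakdown, the aminotransferase Tat, was at 1533 and 1100.4 against 10.9 and 7.82 TPM (-6.99 ± 0.27). The alanine transaminase Gpt went from 350.4 and 196 to 3.92 and 3.51 TPM (-5.80 ± 0.29). The serine dehydratase Sds went from 376 and 217 to 5.15 and 3.55 TPM (-5.76 ± 0.31). The members that did not pass were Fah, at 787 and 463 against 443 and 288 TPM, and Got1, at 114 and 46.9 against 77.3 and 64.98 TPM. Both passed as lower without normal fed sample 1, and the difference of Got1 turned to 0.59 without normal fed sample 0.

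The urea cycle was lower by less and unevenly. Asl, which splits argininosuccinate, was at 994 and 617 TPM in normal fed adults and 86.96 and 61.8 TPM at E18 (-3.40 ± 0.30). Otc was at 489 and 402 against 84.3 and 54.2 TPM (-2.69 ± 0.27). Arg1, which releases urea, was at 2411 and 2219.7 against 469 and 291 TPM (-2.64 ± 0.31). Cps1, which fixes ammonia at the entry of the cycle, was at 1681 and 495 against 650.3 and 391 TPM and the groups overlapped (-0.85 ± 0.57, adjusted p = 0.21); it passed as lower without normal fed sample 1. Of 12 genes 7 were lower and none higher, and 2 were lower and 5 higher with the hepatocyte total set equal. Without normal fed sample 0, 2 were higher.

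Of 16 genes of glucose metabolism 9 were lower and 1 was higher in TPM, but 3 were lower and 9 higher with the hepatocyte total set equal. Pck1, which makes phosphoenolpyruvate for glucose output, went from 1665 and 1408 to 37.4 and 16.4 TPM (-5.89 ± 0.38, adjusted p = 1.3e-05). The fructose kinase Khk went from 452 and 457 to 50.95 and 64.4 TPM (-2.97 ± 0.23). Both were among the 3 that stayed lower with the hepatocyte total set equal (-3.85 and -0.90). Pcx and Pygl, which start glucose synthesis from pyruvate and glycogen breakdown, did not pass, at 252 and 126 against 297 and 204 TPM and at 299.6 and 153 against 365 and 300.4 TPM, though both passed as higher without normal fed sample 0. The higher one was the coactivator Ppargc1a (1.60 ± 0.43), which with median-ratio scaling was at 0.74 and not called. Without normal fed sample 0, 4 were higher; without normal fed sample 1 or E18 sample 0 none was, and without E18 sample 1, 2 were.

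Fat metabolism was mixed. Fatty acid oxidation had 22 of 30 genes lower and 1 higher (median -1.43), and with the hepatocyte total set equal 2 were lower, Fabp1 and the peroxisomal thiolase Acaa1b, and 14 higher. Fabp1, the fatty acid binding protein of liver, went from 21726 and 28962 to 2100.3 and 1337 TPM (-3.90 ± 0.39). Acaa1b went from 858 and 679 to 29.2 and 25.3 TPM (-4.76 ± 0.23). The mitochondrial trifunctional enzyme genes Hadha (286 and 144 against 256 and 194 TPM) and Hadhb (185 and 136 against 218 and 167 TPM) did not pass, though Hadha passed as higher without normal fed sample 0. Pdk4, which blocks pyruvate oxidation, was the higher one, from 0.727 and 0.863 to 34.4 and 20.7 TPM (3.95 ± 0.39). In fatty acid synthesis 9 of 20 were lower and 4 higher, Scd2, Elovl6, Dgat1 (which turned to -0.12 with median-ratio scaling) and Pnpla3. With median-ratio scaling 11 were lower and 2 higher, and with the hepatocyte total set equal 2 were lower and 14 higher. Elovl6 was not called without E18 sample 0. The insulin-induced Thrsp went from 2576 and 1388 to 6.78 and 6.99 TPM (-7.91 ± 0.31). Fatty acid synthase Fasn was at 133 and 40.8 against 77.7 and 56.5 TPM, where the groups overlapped, and passed as lower without normal fed sample 1. In cholesterol synthesis 5 of 24 were higher and 3 lower, against 1 and 11 with median-ratio scaling and 22 and none with the hepatocyte total set equal. The higher ones included Hmgcs1, Lss and Srebf2, and the lower ones were Tm7sf2, Ebp and Sc5d, which stood at 0.50, 0.39 and 0.87 with the hepatocyte total set equal. These counts depended on single libraries: without E18 sample 1, 14 oxidation and 4 synthesis genes were lower, and without normal fed sample 0, 3 oxidation, 8 synthesis and 15 cholesterol genes were higher. Leaving out normal fed sample 1, 3 cholesterol genes were higher and 5 lower, and without E18 sample 0 or sample 1, 1 and 3 were higher.

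**Figure D3:**
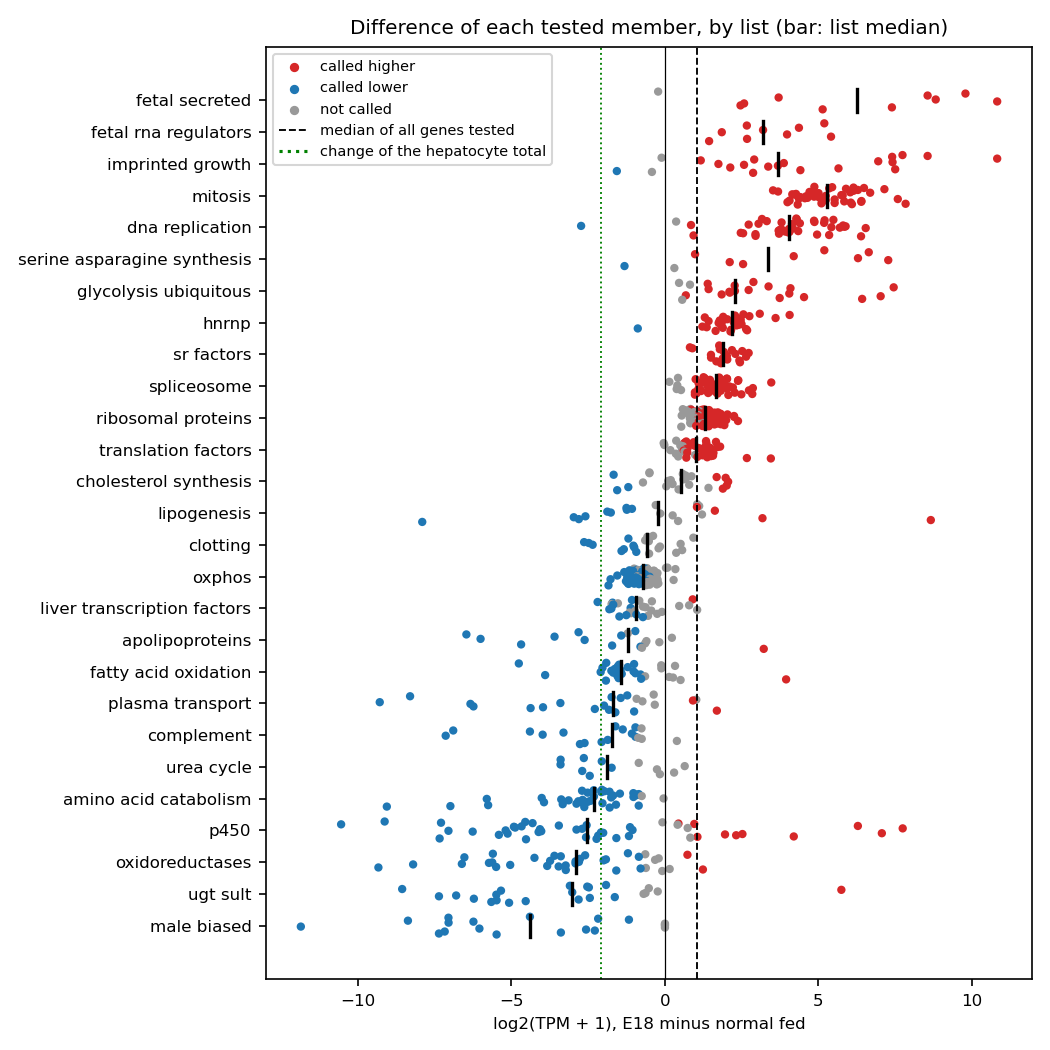
Difference in log2(TPM + 1), E18 minus normal fed, of each tested member of 27 lists (points; red called higher, blue called lower, grey not called), with the list median as a bar, the median of all genes tested (1.06) as a dashed line and the change of the hepatocyte total (-2.08) as a dotted line. The medians of the fetal, mitosis and replication lists lie right of the dashed line, and drug-metabolizing and male-biased lists reach left of the dotted line.

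Plasma proteins, the main export of hepatocytes at both ages, ranged from equal shares of RNA to near absence. At one end Fgg was at 5008 and 3543 TPM in normal fed adults and 7621 and 4729 TPM at E18 (0.51 ± 0.40, adjusted p = 0.28). Kng1, the kininogen, was at 2668 and 1858 against 2570.3 and 1544 TPM. Apoh, which binds phospholipids, was at 4215 and 2690.4 against 3685 and 2389 TPM. Plasminogen (Plg) was at 2022 and 819 against 1401 and 886 TPM. In these 4 the groups overlapped, although hepatocyte lists as a whole took a smaller share at E18, and with the hepatocyte total set equal all 4 were called higher (2.59, 1.92, 1.90 and 1.87). None of them passed as higher in TPM, and with median-ratio scaling Kng1, Apoh and Plg were called lower (-1.36, -1.38 and -1.40).

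In the middle of the range were carriers whose fall was near that of the hepatocyte total. Ttr differed by -1.61 ± 0.39 (adjusted p = 0.0079) and by 0.46 with the hepatocyte total set equal, and it did not pass without E18 sample 1. Rbp4, the retinol carrier, was at 8277 and 8009 against 2575 and 1646 TPM (-1.98 ± 0.37, and 0.10 with the hepatocyte total set equal). The antitrypsin Serpina1e was at 314 and 177 against 62.3 and 36.4 TPM (-2.28 ± 0.36, and -0.23 with the hepatocyte total set equal).

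At the other end were proteins nearly absent at E18. The terminal complement component C9 was at 1993 and 1517 TPM in normal fed adults and 12.5 and 10.2 TPM at E18 (-7.14 ± 0.24, adjusted p = 1.8e-06). The complement inhibitor C4bp was at 559.7 and 526 against 5.25 and 2.32 TPM (-6.90 ± 0.31). Apoa5, which promotes triglyceride clearance, went from 1639.8 and 1421 to 20.2 and 13.05 TPM (-6.47 ± 0.28). Apoc3, which slows that clearance, went from 8257 and 9907 to 164 and 119 TPM (-6.01 ± 0.32). Azgp1, a lipid-mobilizing glycoprotein, went from 1940.2 and 2238 to 7.15 and 4.34 TPM (-8.30 ± 0.27). The acute phase protein Orm1 went from 2211 and 3430.1 to 30.8 and 35.5 TPM (-6.34 ± 0.29), and the macroglobulin Mug1 from 2265 and 1032 to 1.50 and 1.38 TPM (-9.29 ± 0.37). In all of these both E18 samples stood far below both normal fed samples. All 7 were also lower with the hepatocyte total set equal, by values from -3.93 for Apoc3 to -7.67 for Mug1.

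The 4 plasma lists differed in their counts. Of 22 carriers and protease inhibitors tested 15 were lower and 2 higher, Serpina7 (1.69 ± 0.39) and Itih3 (0.91 ± 0.34, and -0.28 with median-ratio scaling), while 10 were left out as listed at 0 in a group. Of 21 clotting genes 9 were lower and none higher (median -0.57), of 18 complement genes 14 and none (-1.74), and of 17 apolipoprotein genes 10 and 1 (-1.21). The higher one was the phospholipid transfer protein Pltp (3.22 ± 0.29), which macrophages also make. With the hepatocyte total set equal the counts were 7 lower and 9 higher for carriers, none and 16 for clotting, 5 and 7 for complement, and 4 and 9 for apolipoproteins. Without E18 sample 1 fewer carriers, clotting and complement genes were called lower, as were fewer of all genes tested, and the cause was not tested. Without normal fed sample 1, 14 clotting genes were lower and 1 carrier was higher, without normal fed sample 0, 2 clotting genes and 1 complement gene were higher, and without E18 sample 0 or either DDC fed sample, 1 carrier was higher.

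The transcription factors that define hepatocytes were present at E18, several of them at lower levels. Hnf4a was at 371 and 193 TPM in normal fed adults and 106 and 58.95 TPM at E18 (-1.75 ± 0.39, adjusted p = 0.0057). It differed by 0.32 with the hepatocyte total set equal, and it did not pass in TPM without E18 sample 1. Foxa3, a pioneer factor, went from 77.3 and 48.2 to 22.2 and 15.1 TPM (-1.68 ± 0.29, and 0.33 with the hepatocyte total set equal). Creb3l3, which drives lipid and iron genes, went from 299 and 255 to 75.4 and 47.1 TPM (-2.19 ± 0.27). Zbtb20, known as a repressor of Afp after birth, went from 17.3 and 11.1 to 4.99 and 3.73 TPM (-1.48 ± 0.27, and 0.36 with the hepatocyte total set equal). Cebpa did not pass, at 417 and 196 against 186 and 137 TPM (-0.84 ± 0.37, adjusted p = 0.078; it passed as lower without normal fed sample 1). Of 28 factors 11 were lower and 1 higher, Atf5 (0.90 ± 0.27, and -0.29 with median-ratio scaling), and with the hepatocyte total set equal none was lower and 18 were higher. The count of lower factors was 22 without normal fed sample 1, 7 without E18 sample 0 and 5 without E18 sample 1. The count of higher ones was 4 without normal fed sample 0 and 0 without E18 sample 0, where Atf5 no longer passed.

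Among nuclear receptors, ligand-bound factors that set metabolic programmes, several fell further than the hepatocyte total. The xenobiotic receptor Nr1i3 went from 157 and 260.4 to 9.54 and 5.78 TPM (-4.59 ± 0.33). Nr0b2, the repressor in bile acid feedback, went from 63.1 and 42.2 to 2.41 and 2.38 TPM (-3.95 ± 0.24). The oestrogen receptor Esr1 was at 16.9 and 10.4 against 1.41 and 0.669 TPM (-2.83 ± 0.30). All 3 were lower with the hepatocyte total set equal, and 6 of the list in all, against 3.36% of all genes, while 15 were higher. The fatty acid receptor Ppara was at 57.1 and 25.4 against 68.5 and 43.7 TPM with overlapping groups, and it passed as higher without normal fed sample 0. The thyroid hormone receptor Thra rose from 4.25 and 2.18 to 32.96 and 37.7 TPM (3.15 ± 0.28). Of 26 receptors 13 were lower and 8 higher, and with median-ratio scaling 17 and 5. Of 17 clock genes 7 were lower and 3 higher, Arntl (which turned to -0.29 with median-ratio scaling), Npas2 and Per1, but 3 were lower without E18 sample 0 or sample 1, and 1 was higher without either of these or normal fed sample 1.

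Ratios of fetal to adult isozymes within a sample do not depend on the scaling. For all of 11 pairs the ratio was higher in both E18 samples than in both normal fed samples. Cyp3a16 over Cyp3a11, the adult form, was 7.59e-05 and 0.000119 in the normal fed samples and 4.24 and 3.96 at E18. Scd2 over Scd1, a pair of fatty acid desaturases, went from 0.000264 and 0.000375 to 6.70 and 7.03. In both pairs, in Igf2 over Igf1 and in the pyruvate kinases Pkm over Pklr the ratio crossed 1. The acetyl-CoA carboxylases Acaca over Acacb changed least, from 1.15 and 1.14 to 3.57 and 2.75. The pairs were chosen from known fetal and adult forms with earlier results of these data known, so no test is given.

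The pairs differed in how they moved between the E18 pools. Scd2 fell from sample 0 to sample 1, 543 and 410.3 TPM, as hepatocyte lists did, and Cyp3a16, at 237 and 144 TPM, did too. Pkm (317 and 409 TPM) and Aldoa (483 and 673 TPM) were higher in sample 1, as blood lists were, and both are expressed in blood cells. Of 21 glycolytic genes of most tissues 18 were higher and none lower, 15 and 1 with median-ratio scaling. Between the pools, 14 of the 21 were higher in sample 1, against 7308 of all 14235 genes. The part of blood cells in these ratios was not tested.

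**Figure D4:**
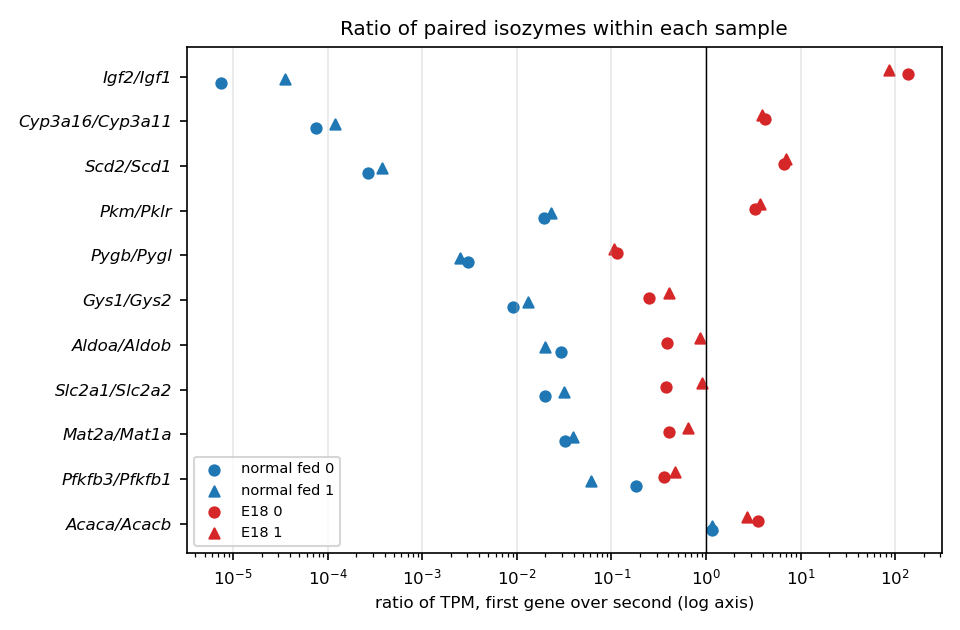
Ratio of TPM of the first gene over the second (log axis) for 11 isozyme or paralogue pairs in the normal fed (blue) and E18 (red) samples, with a line at a ratio of 1. In all 11 pairs both E18 samples lie right of both normal fed samples.

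Of 10 genes of serine, asparagine and proline synthesis, linked folate steps and their regulator Atf4, 8 were higher at E18 and 1 was lower, and 5 of the 10 were under 1 TPM in both normal fed samples. Phgdh, which starts serine synthesis from glycolysis, was at 0.0194 and 0.0320 TPM in normal fed adults and 88.7 and 70.8 TPM at E18 (6.29 ± 0.20). Psat1, the next enzyme, was at 0.255 and 0.378 against 245 and 168 TPM (7.28 ± 0.24). Asns, the asparagine synthetase, went from 0.310 and 0.156 to 124 and 119 TPM (6.64 ± 0.22). Aldh18a1, the first enzyme of proline synthesis, went from 0.130 and 0.0824 to 39.8 and 39.1 TPM (5.19 ± 0.17). The mitochondrial folate enzyme Mthfd2 went from 1.71 and 1.42 to 41.4 and 50.99 TPM (4.20 ± 0.21). With median-ratio scaling 7 were higher and 2 lower. Of the 10, 3 passed the low-value filter only through E18 and so had to be higher, Phgdh and Psat1 among them. Shmt1, which interconverts serine and glycine in the cytosol and is abundant in adult liver, was lower, from 191 and 175 to 89.7 and 59.01 TPM (-1.32 ± 0.25, and 0.74 with the hepatocyte total set equal). Psat1 was lower in E18 sample 1 and Mthfd2 higher.

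Cell division genes were higher at E18 nearly throughout. All 46 mitosis genes were higher, also with median-ratio scaling and with the hepatocyte total set equal, with a median of 5.30. Of these, 3 passed the low-value filter only through E18 and so had to be higher. Top2a, which untangles chromosomes, was at 0.147 and 0.0901 TPM in normal fed adults and 219 and 297 TPM at E18 (7.84 ± 0.22, adjusted p = 1.7e-06). The mitotic kinase Cdk1 was at 1.56 and 2.25 against 268 and 328 TPM (6.69 ± 0.22). The proliferation marker Mki67 was at 0.0614 and 0.0242 against 171 and 233 TPM (7.59 ± 0.22). Of 42 DNA replication genes 40 were higher and 1 lower, or 38 and 2 when scaled by the median ratio. The helicase subunit Mcm5 went from 1.18 and 0.714 to 87.3 and 113 TPM (5.70 ± 0.30). The lower one was the replication factor Mcm10, from 258 and 175 to 26.7 and 36.3 TPM (-2.73 ± 0.29). All 46 mitosis genes and all 42 replication genes were higher in E18 sample 1 than in sample 0, with medians of 0.36 and 0.34, the direction of the blood lists and the opposite of the hepatocyte lists. The part of dividing blood cells in these calls was not tested. Cyclin D1 (Ccnd1), the cyclin of hepatocytes that re-enter the cycle, was at 33.97 and 17.2 against 18.6 and 14.4 TPM with overlapping groups (-0.54 ± 0.33, adjusted p = 0.17; it passed as lower without normal fed sample 1).

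The CCAAT box, bound by the factor NF-Y in promoters of many cell cycle genes, occurred in 33 of 42 promoter windows of mitosis genes (78.6%) and in 33.8% of all windows. The share was 56.3% for amino acid catabolism, 52.4% for erythroid, 46.9% for plasma transport, 45.7% for P450 and 27.9% for ribosomal protein genes. The 2 mitosis genes shown were taken in order of the size of the rise. Only called genes with a single RefSeq window and the motif in the 150 bases shown were eligible, so both hold the motif by choice. Each CCAAT or its reverse complement is in capitals, from the same source.
Top2a, chr11:99024190-99024339, minus strand: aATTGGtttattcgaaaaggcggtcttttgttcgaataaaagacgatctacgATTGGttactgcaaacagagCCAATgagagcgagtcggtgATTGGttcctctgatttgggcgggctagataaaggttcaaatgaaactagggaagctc
Mki67, chr7:135716380-135716529, minus strand: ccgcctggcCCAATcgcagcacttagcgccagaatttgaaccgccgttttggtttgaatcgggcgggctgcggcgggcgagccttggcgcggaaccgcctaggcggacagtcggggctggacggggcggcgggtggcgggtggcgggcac

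Splicing regulators, the subject of the series title, were higher at E18. The SR protein Srsf1 was at 57.1 and 44.2 TPM in normal fed adults and 324 and 353 TPM at E18 (2.73 ± 0.21, adjusted p = 3.0e-05). The hnRNP protein Hnrnpa1 was at 44.5 and 25.5 against 548 and 613 TPM (4.06 ± 0.28). The pyrimidine tract binder Ptbp1 went from 68.6 and 30.6 to 293 and 292 TPM (2.64 ± 0.36). The SR protein Srsf3 went from 42.1 and 53.6 to 281 and 325 TPM (2.64 ± 0.24). Scaled by the median ratio, the 4 differences were 1.54, 2.88, 1.46 and 1.46, all still called. All 20 SR factors were higher, 14 of them with median-ratio scaling, and of 30 hnRNP genes 29 were higher and 1 lower, with 22 and 1 under that scaling. The lower one, Pcbp4 (-0.88 ± 0.22, and 1.02 with the hepatocyte total set equal), was not called without E18 sample 1. Of 55 core spliceosome genes 50 were higher and none lower, but only 23 were higher and 3 lower with median-ratio scaling, against 38.0% and 31.6% of all genes. Of these lists 15, 26 and 50 genes were higher in E18 sample 1, by medians of 0.10, 0.11 and 0.15, against a median of 0.009 over all genes.

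Among tissue-regulated splicing factors some of the largest rises were in genes that blood cells express. Rbm38, an RNA-binding protein of late red cell precursors, went from 4.90 and 2.44 to 123 and 176 TPM (5.04 ± 0.33). Celf2 went from 4.27 and 1.94 to 54.1 and 54.3 TPM (3.81 ± 0.30). Mbnl3 went from 0.0387 and 0 to 11.6 and 11.5 TPM (3.62 ± 0.13), and it passed the low-value filter only through E18. Of 19 tested 12 were higher and none lower, and 63.2% higher is near the 63.0% of all genes. With median-ratio scaling 7 were higher and 5 lower, or 36.8% higher against 38.0%, and in TPM 4 were lower without normal fed sample 1. Esrp2, the epithelial splicing regulator of hepatocytes (ENSMUSG00000084128.10, chromosome 8 from 106130319 to 106136974 on GRCm38), did not pass, at 44.5 and 34.1 TPM in normal fed adults and 32.02 and 21.6 TPM at E18 (-0.55 ± 0.26, adjusted p = 0.088). The E18 samples were both below both normal fed samples, it passed as lower without normal fed sample 1, and the difference was -1.71 with median-ratio scaling and 1.48 with the hepatocyte total set equal.

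The Hippo pathway, a kinase chain that restrains the growth activator YAP, had, on a list that also holds the splicing regulators Esrp1 and Esrp2, 13 of 19 genes higher and 1 lower, Wwc1 (-1.41 ± 0.36, and 0.53 with the hepatocyte total set equal), in TPM and 7 and 6 with median-ratio scaling. These shares were near those of all genes, 68.4% higher against 63.0% in TPM, and 36.8% higher and 31.6% lower against 38.0% and 31.6% with median-ratio scaling. With the trend in exon length removed 3 were lower. The kinase Stk4 went from 7.34 and 4.26 to 50.7 and 57.5 TPM (3.05 ± 0.26, and 1.95 with median-ratio scaling). Nf2, which activates the chain, went from 15.8 and 10.5 to 29.8 and 29.6 TPM (1.14 ± 0.23, adjusted p = 0.0036). Csnk1d, which marks YAP for degradation, went from 35.6 and 19.2 to 63.3 and 65.1 TPM (1.26 ± 0.29, adjusted p = 0.0065). With median-ratio scaling these 2 differed by 0.01 and 0.09 and did not pass, and Csnk1d did not pass without either E18 sample. Yap1 was at 36.2 and 22.9 against 22.5 and 14.99 TPM (-0.62 ± 0.29, adjusted p = 0.09; it passed as lower without normal fed sample 1). Without E18 sample 0, 8 genes of the list were higher, without normal fed sample 1, 4 were lower, and without E18 sample 1 none was lower.

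Genes of translation had medians near that of all genes. Ribosomal protein genes took 3.99% and 7.72% of TPM in the normal fed samples and 12.5% and 14.0% at E18, so the normal fed samples lay far apart. Of 79 genes 59 were higher and none lower in TPM (median 1.30), and none was called either way with median-ratio scaling. Translation factors had 35 of 46 higher in TPM and 2 higher and 10 lower with median-ratio scaling. Without E18 sample 0 or sample 1, 31 and 20 ribosomal protein genes and 17 and 15 translation factors were higher. Ribosome biogenesis genes had 42 of 48 higher and 1 lower, and 16 and 3 with median-ratio scaling; the nucleolar protein Npm1 went from 216 and 278 to 1333 and 1432 TPM (2.49 ± 0.24, and 1.29 with median-ratio scaling). The lower one, Nop16 (-0.60 ± 0.19, and 1.45 with the hepatocyte total set equal), was not called without either DDC fed or either E18 sample. All 79 ribosomal protein genes were higher in E18 sample 1, by a median of 0.16.

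Nuclear-encoded subunits of oxidative phosphorylation, the respiratory chain of mitochondria, were lower or not called in TPM. Of 73 genes 40 were lower and none higher, with a median of -0.70 against 1.06 for all genes, but 70 were higher and none lower with the hepatocyte total set equal, and all 73 were lower with median-ratio scaling. With the trend in exon length removed 20 were lower and 1 higher, with a median of -0.31. Sdhb, the iron-sulfur subunit of succinate dehydrogenase, went from 442 and 462 to 209 and 180.3 TPM (-1.21 ± 0.21, adjusted p = 0.0017, and 0.86 with the hepatocyte total set equal). The ATP synthase subunit Atp5b was at 2001 and 1204 against 1708 and 1477 TPM with overlapping groups. The count rested on single libraries: 11 and 10 were lower without E18 sample 0 or sample 1, 19 and 18 without DDC fed sample 0 or sample 1, and 61 without normal fed sample 0. Without normal fed sample 0 or sample 1, 1 was higher.

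**Figure D5:**
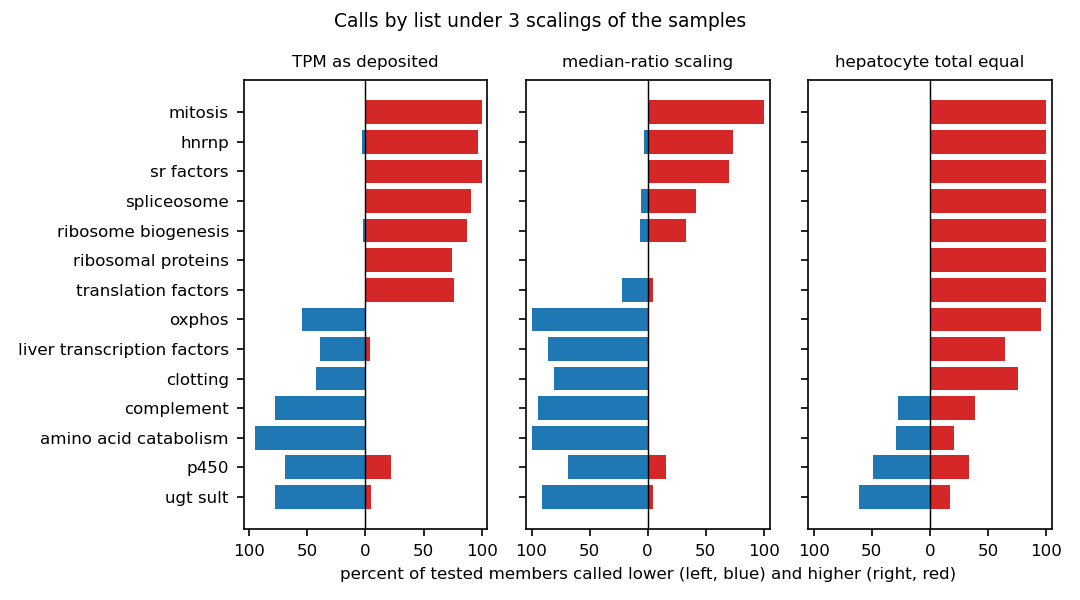
Percent of tested members of 14 lists called lower (blue, to the left) and higher (red, to the right) in TPM as deposited, with median-ratio scaling and with the hepatocyte total set equal. Mitosis genes are all called higher in the 3 panels, while oxidative phosphorylation goes from 40 of 73 lower to 73 of 73 lower and to 70 of 73 higher.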

How the data were processed

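RNA of 6 hepatocyte samples, 2 each from normal fed adults, DDC fed adults and E18 embryos, was sequenced with a stranded kit for polyadenylated RNA, per the labels' protocols. The authors deposited 1 table of TPM per gene, and what computed them is not given in the sources used here. Per the submitters' processing notes, tools include Trimmomatic, STAR 2.4.2a, Cuffdiff 2.2.1, HTSeq and DESeq2, and the builds GRCm38 and mm10, with no order. Table columns are numbered from 0 and sample titles from 1, so columns were mapped to groups only. Reads of near-identical genes may have been shared between copies in ways the table does not show.

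Genes that reached 1 TPM in 2 or more of the 6 samples were tested on log2(TPM + 1) with limma 3.58.1 in R 4.3.3, with group means over all 6 samples, a variance trend and Benjamini-Hochberg adjustment. The fit was tested on simulated data. Differences had 3 residual degrees of freedom before moderation. Genes at 0 in both samples of a group and at 100 TPM or more in another were left out. Positions are from GENCODE M21 (GRCm38), which matched 48053 of 48432 IDs, and promoter windows from RefSeq (GRCm38.p6), which covered 10641 tested genes.

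The genes compared and the lists were chosen with earlier results of these data known, as were the motifs. Genes are named by rule: isozyme pairs and hepatocyte markers; the 12 largest falls, the 12 largest rises on blood lists and the 12 largest rises on no blood or other-cell list, among called genes without overlap that reach a mean of 10 TPM; and up to 4 genes with the smallest adjusted p in each direction of a list, or all where 5 or fewer passed. Others named did not pass the test or carry a role in the pathway, and were chosen after their values were seen. Some genes and a promoter motif are not reported here. Alternatives were other pseudocounts, filters, thresholds, scalings and fits, and each sample left out.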

Additional observations from a re-analysis of the deposited data

How the results depend on the processing

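Depth is unknown, so no counting error can be given, and with 2 samples a group the precision rests on a variance shared across genes and all 6 samples. Genes listed at 0 in a whole group cannot be judged. The counts of genes higher and lower at E18, 8969 and 1795, of hepatocyte list genes, 83 and 284, and of blood list genes, 112 and none, stayed within 1.5 times under the pseudocounts 0.1 and 5, a filter at a mean of 5 TPM, an adjusted p of 0.01, a log2 difference of at least 1, a fit of the 4 samples alone, a robust fit, no variance trend, genes listed at 0 kept, the 50 highest genes and blood genes rescaled, and protein-coding genes only, the last of these chosen after seeing the data. The hepatocyte counts were 17.3% and 59.3% of 479 genes tested, against 63.0% and 12.6% of all genes. They include the 9 tested RNA-binding and chromatin genes of fetal cells, all higher, several of which fetal blood cells express. Of the 479, 28 passed the low-value filter only through E18 and so had to be higher, as did 70 of the 115 blood list genes.

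Scaling moved the counts of higher and lower genes most. With median-ratio scaling 5410 genes were higher, 4503 lower and 2 blood genes lower. With quantile normalization the counts were 4613, 5141 and 2. With the hepatocyte total set equal 479 genes were lower, and 227 hepatocyte genes were higher and 127 lower. With a median ratio over the hepatocyte list genes, chosen after seeing the data, 673 genes were lower, and 168 hepatocyte genes were higher and 168 lower. Exactly 1 blood gene was lower with no low-value filter and with the trend in exon length removed, the latter also chosen after seeing the data. Leaving out each of the 6 samples in turn gave 7219 to 9827 genes higher and 1142 to 2297 lower, 71 to 104 hepatocyte genes higher and 214 to 326 lower, and 106 to 112 blood genes higher and 0 to 2 lower. The fewest lower genes, 1142, came without E18 sample 1. Where this left 1 sample in a group, its spread was taken from the remaining groups.

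With the replicate number as a replicate block 9108 genes were higher and 1909 lower. The same-numbered samples deviated from their group means with a correlation of 0.169, and the labels do not say that a number pairs samples.

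Single genes named above turned their direction as follows. With median-ratio scaling the differences were Itih3 (-0.28), Dgat1 (-0.12), Atp5b (-1.16), Hadha (-1.06), Alad (-0.97), Atf5 (-0.29), Atf4 (-0.21), Arntl (-0.29), Adh7 (-0.17) and Hadhb (-0.93). With quantile normalization they were Fmo4 (-0.41), Ppargc1a (-0.11), Arntl (-0.51), Adh7 (-1.01) and Hspa1a (-1.18). Setting the hepatocyte total equal, they were Apoh (1.90), Hlf (1.34), Prlr (0.70), Sdhb (0.86), Igfbp4 (0.51), Hnf4a (0.32), Wwc1 (0.53), Shmt1 (0.74), Slc38a4 (0.50), Zbtb20 (0.36), Kng1 (1.92), Pcbp4 (1.02), Tm7sf2 (0.50), Rbp4 (0.095), Fasn (1.90), Got1 (2.01), Nop16 (1.45), Cps1 (1.22), Abcb11 (1.56), Cyp7a1 (0.96), Fah (1.32), Ebp (0.39), Sc5d (0.87), Cebpa (1.24), Fmo2 (0.74), Foxa3 (0.33), Acacb (1.60), Abcb4 (2.05), Yap1 (1.39), Plg (1.87), Ttr (0.46), Ccnd1 (1.46), Esrp2 (1.48), Ugt1a1 (1.83), Hspa1b (1.43) and Snrpn (1.30). With a median ratio over the hepatocyte list genes they were Apoh (1.27), Hlf (0.74), Prlr (0.088), Sdhb (0.23), Shmt1 (0.12), Kng1 (1.29), Pcbp4 (0.44), Fasn (1.28), Got1 (1.39), Nop16 (0.83), Abcb11 (0.95), Sc5d (0.25), Fmo2 (0.24), Acacb (1.03), Abcb4 (1.44), Yap1 (0.78), Plg (1.25), Ccnd1 (0.86), Esrp2 (0.86), Ugt1a1 (1.21) and Snrpn (0.76). Without normal fed sample 0 it was Got1 (0.59). The range for Got1 without 1 sample of the normal fed group was -0.68 to 0.59. The cause of these changes was not tested.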

Other observations

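Genes that cells switch on within minutes of a stimulus were higher at E18 and are not part of the lists above. Fos went from 59.5 and 28.8 TPM in the normal fed samples to 981 and 695 TPM at E18 (4.28 ± 0.44 on the log2(TPM + 1) scale, limma, adjusted p = 0.00013), Egr1 from 56.3 and 29.2 to 496 and 337 TPM (3.30 ± 0.41) and Atf3 from 7.71 and 4.59 to 228 and 138 TPM (4.68 ± 0.46). Of 21 such genes 19 were higher and none lower (14 and 1 with median-ratio scaling), and 3 of the 21 were higher in E18 sample 1 than in sample 0. The heat shock genes Hspa1a and Hspa1b, at 11.5 and 2.49 against 9.65 and 5.93 TPM and at 32.4 and 8.21 against 13.9 and 8.94 TPM, had overlapping groups. The metal-binding Mt1 and Mt2, named after their values were seen, went from 333 and 61.3 to 2515 and 2323 TPM (4.07 ± 0.70) and from 69.00 and 14.99 to 1998 and 2297 TPM. Mt2 is also on the erythroid list, so it is part of the erythroid share and of the blood list counts given above.

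Markers of organs next to the liver, listed after the data were seen, differed between the E18 pools. Genes of the exocrine pancreas took 0.0868% of TPM in E18 sample 0 and 0.0089% in sample 1, against 0.0047% and 0.0067% in the normal fed samples. Ctrb1 was at 298 and 25.8 TPM, Clps at 135 and 11.2 TPM and Pnliprp1 at 139 and 10.2 TPM in E18 samples 0 and 1, and none of the 3 was above 0 in the normal fed samples. Rbp2, a retinol binder of the gut, was at 961 and 658 TPM and listed at 0 in normal fed adults. The 6 tested genes of an intestine list, without genes listed at 0 in a group, did not follow Rbp2. They took 0.0258% and 0.0079% of TPM in E18 samples 0 and 1, against 0.0191% and 0.0308% in the normal fed samples. Genes of bile duct cells, of which 19 were tested, were higher in 16 cases and lower in none, and 5 of the 19 were higher in E18 sample 1. That is 84.2% higher against 63.0% of all genes, and 3 of the 19 passed the low-value filter only through E18. Stefin A genes, cysteine protease inhibitors of neutrophils, were listed at 0 in all adult samples and took 1.74% and 2.17% of all TPM at E18, so no fold is given.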
